A study of Homo sapiens with 36 samples.

Results

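BHLHE40 and 9 further genes of the circadian clock were followed over a prostate cancer cell line experiment: the transcriptional repressors BHLHE40 and BHLHE41, the period genes PER1, PER2 and PER3, the cryptochromes CRY1 and CRY2, the nuclear receptors NR1D1 and NR1D2, and the clock output factor DBP. The members were taken as all array probes annotated to these 10 symbols, which gave 13 of 47323 probes. Of these, 10 probes of 9 genes passed the detection filter (a detection p below 0.01 on at least 3 arrays) and were tested among 12360 genes. DU 145, PC-3 and 22Rv1 are established lines grown from human prostate cancer. The labels call DU 145 radiation resistant and PC-3 and 22Rv1 radiation sensitive, and the study asked which expression changes accompany radiosensitisation by vorinostat, an inhibitor of histone deacetylases, which the design text reports for DU 145 only. Each line had 4 groups of 3 single-colour Illumina bead arrays, 36 arrays in all: hypoxia with vorinostat, hypoxia with solvent, normoxia with vorinostat, and normoxia with solvent. Vorinostat was given at 1 µM for 24 h and hypoxia was 0.2% oxygen for 24 h. The solvent arrays carry the word untreated in the sample characteristics, and RNA was taken before any irradiation. All cultures were grown in RPMI-1640 medium with fetal calf serum. The sources used here give neither the time of day of harvest nor whether replicate arrays came from separate cultures, so p-values measure the spread between these arrays, which may be technical.

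The circadian clock is a transcriptional feedback loop. CLOCK and BMAL1 bind E-box sequences and switch on the PER and CRY genes, whose proteins return to block that activation, while NR1D1 and NR1D2 (REV-ERB alpha and beta) repress BMAL1 and DBP carries the rhythm to output genes. BHLHE40 and BHLHE41 (DEC1 and DEC2) bind E-boxes as repressors, and BHLHE40 is known as a target of hypoxia-inducible factor.

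Promoter letters are shown for BHLHE40, which rose in all 6 hypoxia comparisons, for its relative BHLHE41, called in 2 of them, and for CRY1 and DBP, which rose with vorinostat in a single line each. All 10 members matched the RefSeq promoter table (GRCh38.p14), in 13 windows. Each window holds the 250 bases before a gene's start, 5′ to 3′ on the gene's own strand. Capitals mark every match to the hypoxia response core (ACGTG or GCGTG, either strand), and the E-box CACGTG contains that core on both strands, so that 1 E-box counts as 2 overlapping cores.
BHLHE40 (chr3:4979187-4979436, plus strand): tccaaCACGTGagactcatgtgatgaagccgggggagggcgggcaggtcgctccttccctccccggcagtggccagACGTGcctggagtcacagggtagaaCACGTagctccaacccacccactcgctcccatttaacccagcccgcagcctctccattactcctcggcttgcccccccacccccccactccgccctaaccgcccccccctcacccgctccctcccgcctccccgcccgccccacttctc
BHLHE41 (chr12:26125038-26125287, minus strand): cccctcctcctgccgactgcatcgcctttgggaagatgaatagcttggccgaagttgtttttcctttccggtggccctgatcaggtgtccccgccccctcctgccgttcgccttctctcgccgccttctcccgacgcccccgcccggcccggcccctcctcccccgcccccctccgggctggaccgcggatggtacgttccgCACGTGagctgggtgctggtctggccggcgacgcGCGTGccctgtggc
CRY1 (chr12:107093550-107093799, minus strand): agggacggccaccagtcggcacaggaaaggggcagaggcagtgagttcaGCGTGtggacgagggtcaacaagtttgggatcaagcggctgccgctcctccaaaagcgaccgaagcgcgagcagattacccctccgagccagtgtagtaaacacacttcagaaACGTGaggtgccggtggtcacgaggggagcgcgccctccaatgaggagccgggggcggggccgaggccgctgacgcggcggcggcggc
DBP (chr19:48637380-48637629, minus strand): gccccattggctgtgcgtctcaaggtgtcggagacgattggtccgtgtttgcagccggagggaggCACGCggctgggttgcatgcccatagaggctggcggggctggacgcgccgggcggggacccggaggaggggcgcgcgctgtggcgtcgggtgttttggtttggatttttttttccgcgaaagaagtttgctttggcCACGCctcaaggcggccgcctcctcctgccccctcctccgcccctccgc
BHLHE40 held 1 E-box and 4 core matches, and BHLHE41 held 1 E-box and 3 core matches. CRY1 and DBP each held 2 core matches and no E-box in this window. Of the windows not shown, 1 of NR1D2 held the most, with 2 E-boxes and 5 core matches, though NR1D2 was called in no hypoxia comparison. The NR1D1 window held 3 core matches, and the other windows not shown held 0 to 2. An E-box stood in 4 of the 13 member windows (BHLHE40, BHLHE41, PER1 and 1 of NR1D2), against 6.34% of all 35116 promoter windows of the same length. A core match stood in 11 of the 13 member windows, and 43.2% of all windows hold one. Other scanned letters were also more frequent in member windows. The GC box (GGGCGG) stood in 12 of 13 (42.6% of all windows) and TGACG in 5 (21.2%). AGGTCA stood in 3 (12.1%) and the D-box TTATGTAA in 2 (0.834%). The higher share was therefore not particular to the E-box and the core. The PER3 windows overlap and share a core match, which is counted in each. These matches describe letters only and were not tested as binding sites.

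Between 30.1% and 35.7% of probes were above background on an array, replicate arrays correlated at 0.985 to 0.995, and the number of arrays limits the precision. Of 8 measured genes known to rise in hypoxia, 6 to 8 rose and none fell in each of the 6 hypoxia comparisons, and of 4 measured genes known to respond to deacetylase inhibitors, 3 or 4 changed in each of the 6 vorinostat comparisons. Epithelial markers (4 of 4) were above background in all 3 lines. Of 4 luminal androgen-response markers with a probe, 3 were detected in 22Rv1 (not KLK3), TMPRSS2 alone in PC-3, and none in DU 145. Of 7 markers of other cell types, CD68 was detected in all lines, PC-3 also held PECAM1 and COL1A1 (12 of 12 arrays) and COL3A1 (7 of 12), COL1A1 was detected on 5 of 12 DU 145 and 4 of 12 22Rv1 arrays, and PTPRC, CD3E and VWF were detected on no array. The summed level of these 7 markers ran from 985 to 1691 in DU 145, from 1082 to 1636 in PC-3 and from 232 to 439 in 22Rv1, on the linear scale of the normalised signal, and their part in the differences between lines was not tested.

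BHLHE41, PER2, PER3, NR1D1 and DBP were above background on arrays of some lines or treatments only, and passed the detection filter through those. A difference between such a group and a group at background was therefore favoured by the filter, and its test supports nothing. Log2 values also depend on the background correction: without it, 39 of the 58 called member values were over 1.5 times smaller, 4 calls were lost and 0 changed sign.

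Hypoxia raised BHLHE40 in every line and with either drug state. A gene is called changed where its adjusted p is under 0.05 (limma, Benjamini-Hochberg over the 12360 genes). With solvent, hypoxia changed 1 of 9 tested members in DU 145, against 14.8% of all genes, 2 of 9 in PC-3, against 16.9%, and 1 of 9 in 22Rv1, against 20.2%. With vorinostat, hypoxia changed 1 of 9 members in DU 145 (9% of all genes), 3 of 9 in PC-3 (13.9%) and 3 of 9 in 22Rv1 (21.8%). Apart from BHLHE40, each of these calls was for a smaller change, in BHLHE41, PER2, CRY1 or NR1D1. BHLHE41, PER2, PER3, NR1D1 and DBP had no DU 145 array above background, so their change there was not measurable. In 22Rv1 with vorinostat, the calls of BHLHE41 and NR1D1 each set a group with 1 detected array against a group at background. Nothing is read from these counts about the members as a set.

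Vorinostat changed different members in different lines: CRY1 rose in DU 145, PER2 fell most in PC-3, and DBP rose in 22Rv1. PER2 and DBP were at background on every DU 145 array, and DBP on most PC-3 arrays, which limits what can be seen there. In normoxia it changed 2 of 9 members in DU 145 (40.8% of all genes), 2 of 9 in PC-3 (25.8%) and 2 of 9 in 22Rv1 (31.4%). In hypoxia it changed 3 of 9 in DU 145 (41.3%), 2 of 9 in PC-3 (28.4%) and 3 of 9 in 22Rv1 (33.4%). These shares are near or below the share of all genes, and the median member change lay between -0.15 and 0.08 on the log2 scale in the 6 vorinostat comparisons. Counts and medians include members at background in both groups, whose change was not measurable. These were BHLHE41, PER2, PER3, NR1D1 and DBP in DU 145, PER3 in 22Rv1, and BHLHE41 and NR1D1 in normoxic 22Rv1. The counts therefore do not describe the response of the detected members.

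**Figure D1:**
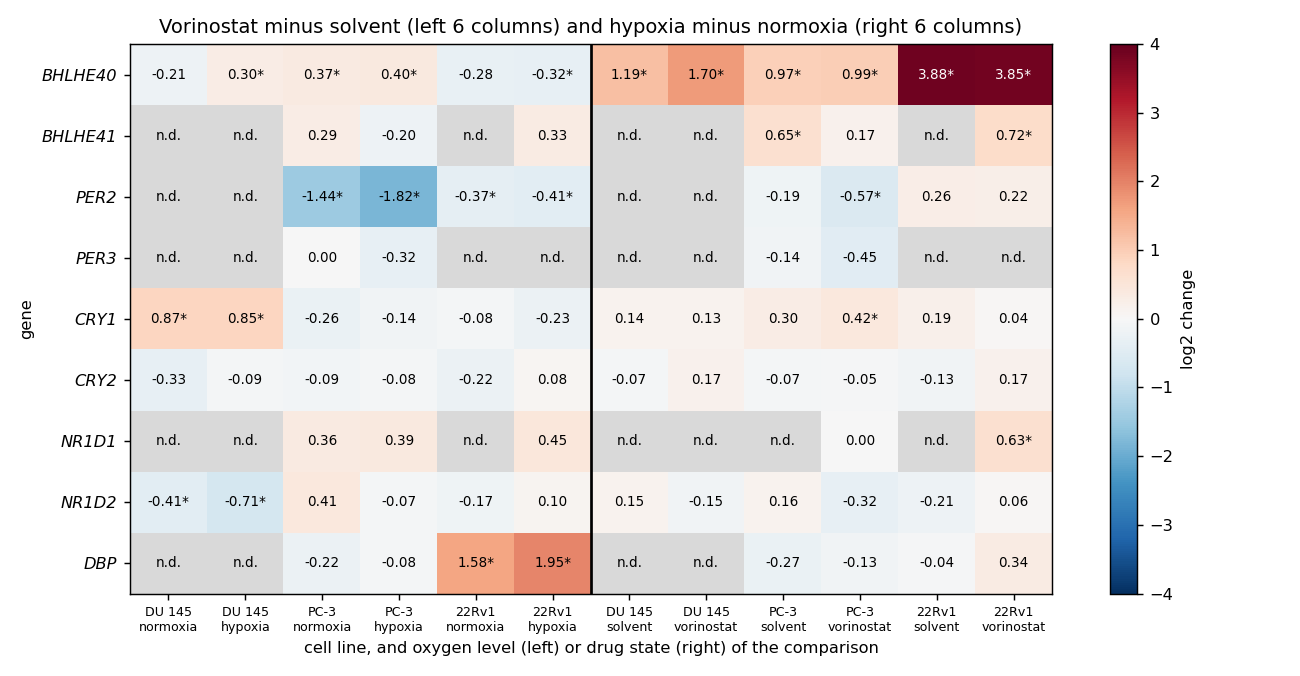
Log2 change of the 9 tested members (rows) in the 6 vorinostat comparisons (left of the line) and the 6 hypoxia comparisons (right of it), coloured from lower (blue) to higher (red), with an asterisk where the adjusted p was under 0.05 and n.d. on grey where neither group had an array above background. BHLHE40 is higher in all 6 hypoxia comparisons, with the darkest cells in 22Rv1 (3.88 and 3.85).

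BHLHE40 rose in hypoxia in all 3 lines, by 2.29-fold in DU 145, 1.96-fold in PC-3 and 14.8-fold in 22Rv1 with solvent. Its probe was above background on all 36 arrays. In 22Rv1 with solvent the normalised log2 signal was 9.84, 10.17 and 9.92 in hypoxia, against 6.11, 6.17 and 5.99 in normoxia. The hypoxic and normoxic arrays of this line stand far apart and do not overlap, and the difference was 3.88 ± 0.11 (log2, SE, 3 arrays a group, adjusted p = 5.9e-22). The deposited bead signals behind these values were 1125, 1330 and 877 in hypoxia and 164, 172 and 162 in normoxia.

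In DU 145 with solvent, BHLHE40 read 10.83, 10.49 and 10.86 in hypoxia, against 9.63, 9.53 and 9.44 in normoxia. In PC-3 with solvent it read 12.27, 12.23 and 12.39 in hypoxia, against 11.31, 11.31 and 11.36 in normoxia. The arrays of the 2 oxygen states do not overlap in either line, and the differences were 1.19 ± 0.11 in DU 145 (log2, SE, adjusted p = 4.7e-09) and 0.97 ± 0.11 in PC-3 (adjusted p = 2.6e-07). A rise was also present under vorinostat: 1.70 in DU 145 (adjusted p = 4.3e-12), 0.99 in PC-3 (adjusted p = 2.4e-07) and 3.85 in 22Rv1 (adjusted p = 2.3e-21).

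The rise was larger in 22Rv1 than in the other lines. The hypoxia response with solvent in 22Rv1 exceeded that in DU 145 by 2.69 ± 0.16 (log2, SE, adjusted p = 4.5e-13), and the response in PC-3 minus that in 22Rv1 was -2.92 ± 0.16 (adjusted p = 5.1e-14). PC-3 minus DU 145 gave -0.23 (95% interval -0.55 to 0.10, adjusted p = 0.54), so these 2 lines were not shown to differ. BHLHE40 was the single member called for 22Rv1 minus DU 145 (1 of 9, against 5.79% of all genes) and for PC-3 minus 22Rv1 (1 of 9, against 5.2%). PC-3 minus DU 145 gave 0 of 9 (2.88% of all genes, limma), with 1 member, BHLHE41, at an unadjusted p under 0.05. BHLHE41, PER2, PER3, NR1D1 and DBP had no DU 145 array above background, so their response there was not measurable. In 22Rv1 with solvent BHLHE41, PER3 and NR1D1 were at background in both oxygen states. Without background correction PC-3 minus 22Rv1 gave 2 members. Nothing is read from these counts about the other members. Among genes above background in both oxygen states, the BHLHE40 rise with solvent ranked 4 of 9963 in 22Rv1, 49 of 9489 in DU 145 and 126 of 9914 in PC-3. The low normoxic signal of 22Rv1 lies near the background, and without background correction its rise was 2.82 with solvent and 2.64 with vorinostat on the log2 scale.

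**Figure D2:**
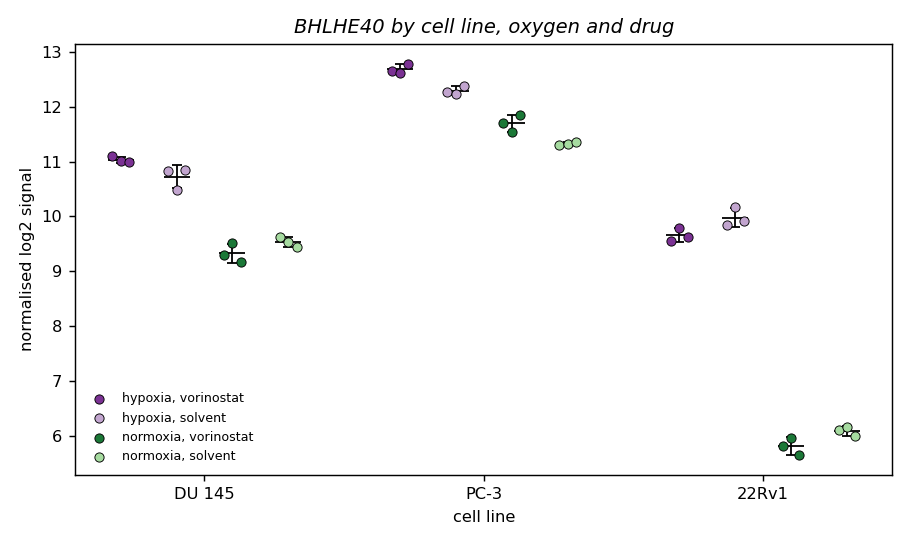
Normalised log2 signal of BHLHE40 on each of the 36 arrays (points), with the group mean (wide bar) and SD (error bar), for each line in the order hypoxia with vorinostat, hypoxia with solvent, normoxia with vorinostat, normoxia with solvent. The 22Rv1 arrays run from 9.55 to 10.17 in hypoxia and from 5.65 to 6.17 in normoxia, while the lowest PC-3 array reads 11.31.

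Vorinostat moved BHLHE40 little, and in different directions between lines. In PC-3 in normoxia it read 11.71, 11.54 and 11.85 with vorinostat, against 11.31, 11.31 and 11.36 with solvent, a rise of 0.37 ± 0.11 (log2, SE, adjusted p = 0.012). In PC-3 in hypoxia it read 12.66, 12.62 and 12.79 with vorinostat, against 12.27, 12.23 and 12.39 with solvent, a rise of 0.40 (adjusted p = 0.0073). In 22Rv1 in hypoxia the 3 vorinostat arrays (9.55, 9.79 and 9.63) lay below the 3 solvent arrays (9.84, 10.17 and 9.92), a fall of -0.32 (adjusted p = 0.026).

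In 22Rv1 in normoxia BHLHE40 read 5.81, 5.97 and 5.65 with vorinostat, against 6.11, 6.17 and 5.99 with solvent, a difference of -0.28 without overlap that did not pass (adjusted p = 0.052). It passed with the replicate number as a block (adjusted p = 0.022), with array weights (adjusted p = 0.0097) and in 4 other alternatives. In DU 145 the drug difference was 0.30 in hypoxia (adjusted p = 0.028), where the readings were 11.09, 11.01 and 10.99 with vorinostat and 10.83, 10.49 and 10.86 with solvent. In normoxia DU 145 read 9.30, 9.51 and 9.17 with vorinostat and 9.63, 9.53 and 9.44 with solvent, a difference of -0.21 with overlapping arrays (adjusted p = 0.14). Averaged over both oxygen states, the drug effect in PC-3 exceeded that in 22Rv1 by 0.69 ± 0.11 (log2, SE, adjusted p = 1.8e-05). The effect in DU 145 was 0.34 below that of PC-3 (-0.34, adjusted p = 0.021, but 0.25 with median scaling and 0.052 with array weights) and above that of 22Rv1 by 0.35 (adjusted p = 0.013).

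The vorinostat effect under hypoxia less the effect under normoxia was 0.51 for BHLHE40 in DU 145 (95% interval 0.19 to 0.83, adjusted p = 0.16), 0.02 in PC-3 (-0.30 to 0.35) and -0.04 in 22Rv1 (-0.36 to 0.29). No member passed this test: 0 of 9 in DU 145 (0.72% of all genes), 0 of 9 in PC-3 (0.0647%) and 0 of 9 in 22Rv1 (0.72%), by limma. At an unadjusted p under 0.05 there was 1 member in DU 145, 2 in PC-3 and 0 in 22Rv1. With median scaling in place of quantile normalisation, the drug calls for BHLHE40 in DU 145 in hypoxia and in both oxygen states of PC-3 were lost (adjusted p = 0.077, 0.052 and 0.28). Leaving out 1 array also ended the call in DU 145 in hypoxia (vorinostat array 1 or solvent array 2), in PC-3 in normoxia (vorinostat array 3, adjusted p = 0.077) and in 22Rv1 in hypoxia (vorinostat array 1 or 3, or solvent array 2).

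Ordered by mean, BHLHE40 was highest in hypoxic PC-3 with vorinostat (12.69 ± 0.09, SD, n = 3) and lowest in normoxic 22Rv1 with vorinostat (5.81 ± 0.16). The 4 PC-3 groups came first, then hypoxic DU 145, hypoxic 22Rv1 (solvent above vorinostat), normoxic DU 145 (solvent above vorinostat) and normoxic 22Rv1. Of the 11 neighbouring pairs in this order, 2 had overlapping arrays: hypoxic 22Rv1 with vorinostat beside normoxic DU 145 with solvent, and the 2 normoxic DU 145 groups. In normoxia with solvent, DU 145 was 3.47-fold lower than PC-3 (-1.79 ± 0.11 on the log2 scale) and 10.9-fold higher than 22Rv1 (3.44 ± 0.11), and PC-3 was 37.7-fold higher than 22Rv1 (5.24 ± 0.11), with adjusted p of 8.25e-15, 4.2e-22 and 6.5e-27. Without background correction the differences from 22Rv1 were 2.41 for DU 145 and 4.10 for PC-3 on the log2 scale.

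The 5 genes whose pattern was most like that of BHLHE40, by Pearson correlation over the 12 group means after subtracting each line's own mean, were RLF (r = 0.974), TWSG1 (0.971), BNIP3 (0.968), PKM (0.968) and PLOD1 (0.963). The points of such a correlation share arrays and normalisation, and it is given as a description. TWSG1 encodes a binder of bone morphogenetic proteins, BNIP3 a mitochondrial protein of mitophagy, PKM the glycolytic pyruvate kinase and PLOD1 a collagen lysyl hydroxylase. BNIP3, also one of the hypoxia check genes, was higher in hypoxia with solvent by 1.48 in DU 145, 1.32 in PC-3 and 3.45 in 22Rv1 (log2). The other 4 genes were likewise furthest apart in 22Rv1, between 0.65 for TWSG1 and 1.89 for PLOD1. The genes were chosen for matching a pattern with its largest gap in 22Rv1, so this order is no separate result. Among the members the same measure was 0.80 for BHLHE41 and 0.61 for NR1D1, both at or near background on most arrays, and between -0.14 and 0.24 for the other 6.

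**Figure D3:**
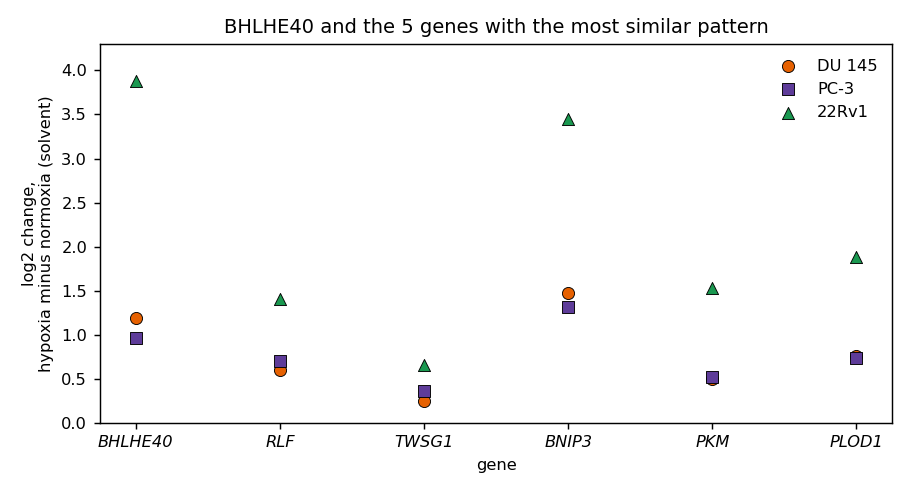
Log2 change in hypoxia minus normoxia with solvent (vertical axis) for BHLHE40 and the 5 genes with the most similar pattern over group means, in DU 145 (circles), PC-3 (squares) and 22Rv1 (triangles). In each of these 6 genes the 22Rv1 point is the highest, at 3.88 for BHLHE40 and 3.45 for BNIP3, an order that the choice by pattern favoured.

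BHLHE41, the close relative of BHLHE40 and a repressor of the same E-box class, was measured above background mainly in PC-3. It was above background on 12 of 36 arrays, 11 of them PC-3, and on no DU 145 array. In PC-3 with solvent it read 6.44, 6.34 and 5.75 in hypoxia, against 5.77, 5.65 and 5.15 in normoxia. The 2 sets overlap at their edge, and the rise was 0.65 ± 0.16 (log2, SE, adjusted p = 0.0051). That call was lost when PC-3 was fitted alone (adjusted p = 0.11) and without the third normoxic solvent array (adjusted p = 0.065), and the rise was 0.26 without background correction.

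In 22Rv1 with vorinostat BHLHE41 read 5.26, 5.16 and 5.08 in hypoxia, with 1 array above background, against 4.53, 4.42 and 4.38 in normoxia, with none. The difference of 0.72 was called, but with 1 of the 6 arrays above background nothing is read from the test, and no fold is given. Under vorinostat in PC-3 the hypoxia difference was 0.17 and did not pass. None of the 3 vorinostat comparisons with a group above background passed, with differences from -0.20 to 0.33. As a description, BHLHE41 in normoxia with solvent was at least 1.05-fold lower in DU 145 than in PC-3. It was at least 1.19-fold higher in PC-3 than in 22Rv1. These bounds set the detected group against the lowest signal above background on each array.

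PER2, a core repressor of the loop, fell with vorinostat in PC-3, fell less in 22Rv1, and was at background in DU 145. The probe that measured it was above background on all 24 arrays of PC-3 and 22Rv1 and on none of DU 145, while the other 2 PER2 probes were above background on none of 36 arrays. In PC-3 in normoxia PER2 read 6.44, 6.55 and 6.38 with vorinostat, against 7.99, 7.80 and 7.90 with solvent. In hypoxia it read 6.39, 5.71 and 5.57 with vorinostat, against 7.67, 7.88 and 7.58 with solvent.

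The PC-3 arrays with drug lie wholly below those without. The falls were -1.44 ± 0.14 in normoxia (log2, SE, 2.71-fold, adjusted p = 9.8e-09) and -1.82 ± 0.14 in hypoxia (3.53-fold, adjusted p = 1.1e-10), placing PER2 22nd of 9977 and 4th of 9775 genes measured on both sides, counted from the largest fall. Without background correction the falls were -0.90 and -1.01. In 22Rv1 in normoxia PER2 read 7.73, 7.73 and 7.80 with vorinostat, against 8.16, 8.18 and 8.02 with solvent. In hypoxia it read 7.98, 7.91 and 8.03 with vorinostat, against 8.40, 8.23 and 8.52 with solvent.

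Those arrays also do not overlap, with falls of -0.37 (adjusted p = 0.049) and -0.41 (adjusted p = 0.025). Leaving out any 1 of the 6 arrays ended the normoxic call, with adjusted p from 0.054 to 0.13, and leaving out vorinostat array 1 or 2 or solvent array 1 or 3 ended the hypoxic one (up to 0.12). The drug effect in PC-3 minus that in 22Rv1, averaged over oxygen states, was -1.24 ± 0.14 (log2, SE, adjusted p = 6.6e-08). DU 145 minus PC-3 was 1.34 in the fit, with all 4 DU 145 groups at background, so it is given as a value only. In normoxia with solvent PER2 was at least 5.45-fold lower in DU 145 than in PC-3 and at least 6.36-fold lower than in 22Rv1. These bounds are a description, since PER2 entered the test through PC-3 and 22Rv1.

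Hypoxia lowered PER2 in PC-3 under vorinostat by -0.57 ± 0.14 (log2, SE, adjusted p = 0.0074), with arrays of 6.39, 5.71 and 5.57 in hypoxia against 6.44, 6.55 and 6.38 in normoxia. The first hypoxic array lies within the normoxic range, and the call was lost when hypoxic array 2 or 3 was left out, with array weights (adjusted p = 0.078) and with PC-3 fitted alone (adjusted p = 0.087). The other 3 hypoxia comparisons with PER2 above background did not pass (-0.19 to 0.26).

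PER1 was above background on 0 of 36 arrays, between 4.29 and 4.99 on the log2 scale, and was not tested. PER3 was above background on 5 of 36 arrays, all PC-3, and was called in none of its 12 drug and oxygen comparisons. In 4 of 6 drug and 4 of 6 hypoxia comparisons neither group was above background, so no change was measurable there. Differences with a detected group ran from -0.45 to -0.0029. PER3 read 4.77, 5.11 and 4.70 in DU 145, 5.30, 5.70 and 5.29 in PC-3 and 4.60, 4.66 and 4.73 in 22Rv1 in normoxia with solvent. All 5 detected arrays being PC-3, these levels are given as a description: PER3 was at least 1.11-fold higher in PC-3 than in 22Rv1, and DU 145 minus PC-3 was -0.57 in the fit.

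**Figure D4:**
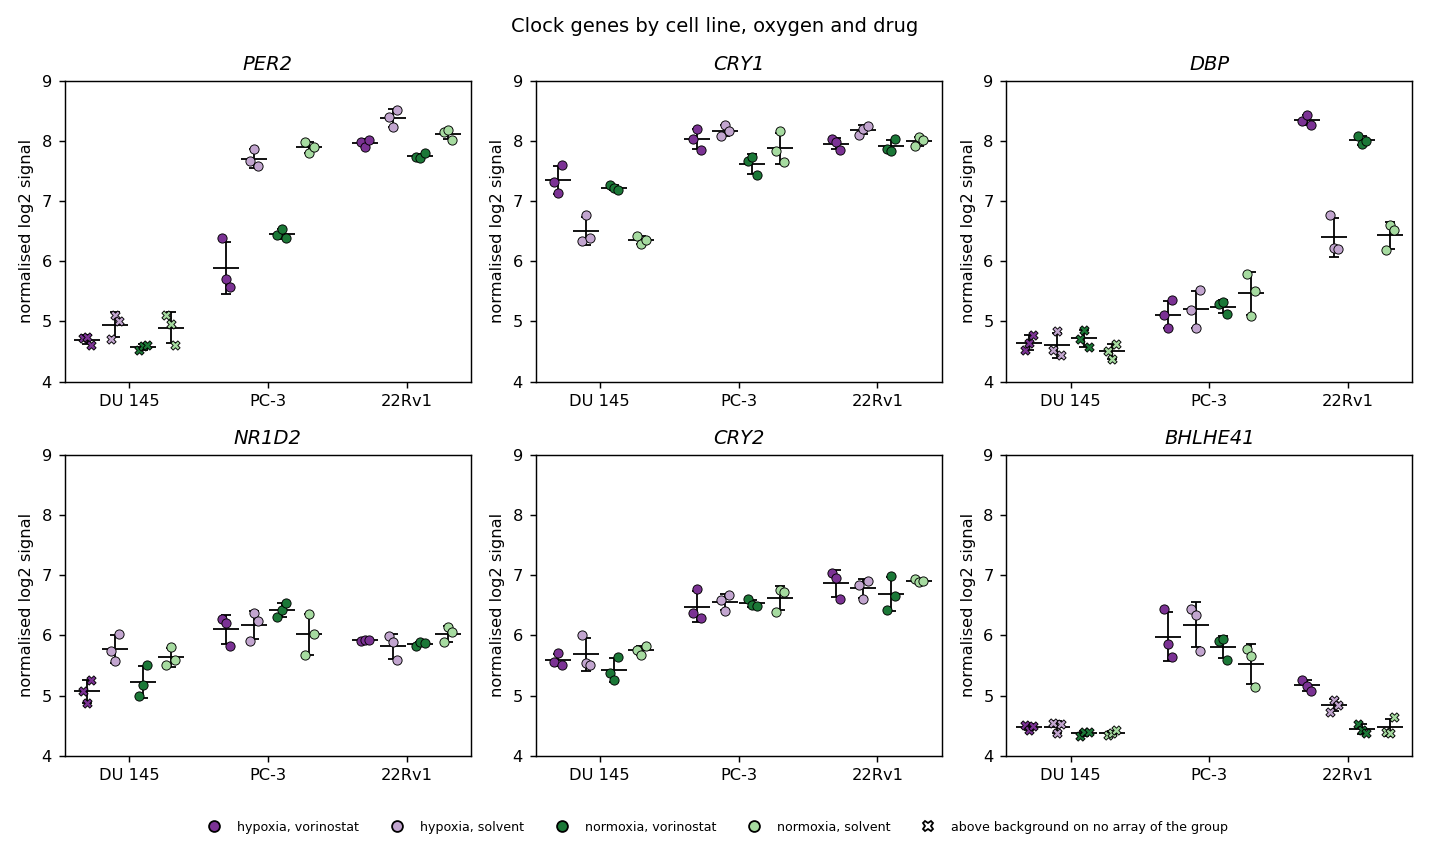
Normalised log2 signal of 6 members on each array (points, 3 a group) with group mean (wide bar) and SD (error bar), for each line in the order hypoxia with vorinostat, hypoxia with solvent, normoxia with vorinostat, normoxia with solvent, with crosses where no array of a group was above background. PER2 is lower with vorinostat in PC-3, CRY1 higher with vorinostat in DU 145, and DBP higher with vorinostat in 22Rv1.

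CRY1, the stronger repressor of the cryptochrome pair, rose with vorinostat in DU 145 and in neither of the other lines. It was measured by 2 probes above background on all 36 arrays. In DU 145 in normoxia the probe with the higher mean read 7.27, 7.22 and 7.18 with vorinostat, against 6.41, 6.30 and 6.36 with solvent. In hypoxia it read 7.32, 7.14 and 7.60 with vorinostat, against 6.34, 6.77 and 6.39 with solvent.

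The groups do not overlap, and the rises were 0.87 ± 0.13 in normoxia (log2, SE, 1.82-fold, adjusted p = 2.0e-06) and 0.85 ± 0.13 in hypoxia (1.81-fold, adjusted p = 2.4e-06). The second probe gave 0.77 and 0.94 (adjusted p = 1.5e-04 and 9.1e-06, limma over all probes that passed). Without background correction the rises were 0.49 and 0.50. In PC-3 and 22Rv1 the 4 drug differences ran from -0.26 to -0.08, with 95% intervals between -0.52 and 0.17, and none passed. The drug effect on CRY1 in DU 145 exceeded that in PC-3 by 1.06 ± 0.13 (log2, SE, adjusted p = 1.4e-07) and that in 22Rv1 by 1.02 ± 0.13 (adjusted p = 1.4e-07).

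The DU 145 rise started from a low level. In normoxia with solvent CRY1 read 6.41, 6.30 and 6.36 in DU 145, 7.84, 8.16 and 7.65 in PC-3 and 7.92, 8.06 and 8.02 in 22Rv1. DU 145 lay below PC-3 by -1.52 ± 0.13 (adjusted p = 7.5e-12) and below 22Rv1 by -1.64 ± 0.13 (adjusted p = 9.3e-13), while PC-3 and 22Rv1 overlap for this probe. For the second CRY1 probe PC-3 minus 22Rv1 was -0.47 (adjusted p = 0.0071). Hypoxia raised CRY1 in PC-3 under vorinostat by 0.42 (adjusted p = 0.025), but the second probe gave 0.14 (adjusted p = 0.62) and leaving out vorinostat array 1 or 2 in hypoxia or array 3 in normoxia ended the call. Median scaling (0.24, adjusted p = 0.33), array weights (0.054), the line alone (0.12) and averaged probes (0.13) ended it too. The other 5 hypoxia differences ran from 0.04 to 0.30 and did not pass.

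CRY2, the other cryptochrome, was above background on 34 of 36 arrays and did not pass in any of the 12 drug and oxygen comparisons. Its drug differences ran from -0.33 to 0.08 and its hypoxia differences from -0.13 to 0.17. It read 5.75, 5.67 and 5.83 in DU 145, 6.40, 6.76 and 6.73 in PC-3 and 6.94, 6.89 and 6.90 in 22Rv1 in normoxia with solvent. DU 145 lay below both other lines, by -0.88 ± 0.15 against PC-3 (adjusted p = 7.2e-06) and by -1.16 ± 0.15 against 22Rv1 (adjusted p = 5.15e-08). Without background correction these differences were -0.40 and -0.56.

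NR1D2, the REV-ERB beta receptor, fell with vorinostat in DU 145. In hypoxia it read 5.07, 4.88 and 5.27 with vorinostat, above background on no array, against 5.75, 5.57 and 6.03 with solvent, above background on all 3. The groups do not overlap, and NR1D2 was at least 1.32-fold lower with vorinostat (-0.71 ± 0.16 in the fit, log2, SE, adjusted p = 6.1e-04). In normoxia it read 4.99, 5.17 and 5.51 with vorinostat, above background on 1 array, against 5.51, 5.81 and 5.58 with solvent, above background on 2.

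That normoxic difference of -0.41 passed narrowly (adjusted p = 0.040) with arrays that touch, and it was lost in 11 of 18 alternatives. In PC-3 and 22Rv1 NR1D2 was above background on all 24 arrays and the drug differences ran from -0.17 to 0.41 without passing. The 0.41 in normoxic PC-3 (adjusted p = 0.059) passed with the replicate block (0.033), cyclic loess (0.023), offset 50 (0.044) and without solvent array 2 (0.011). The drug effect on NR1D2 in DU 145 was below that in PC-3 by -0.73 ± 0.16 (log2, SE, adjusted p = 7.3e-04) and below that in 22Rv1 by -0.52 (adjusted p = 0.0098, lost with median scaling at 0.069). Its normoxic solvent level in DU 145 was below that in PC-3 by -0.38 (adjusted p = 0.039) and below that in 22Rv1 by -0.39 (adjusted p = 0.032), and leaving out DU 145 array 1 or 3 ended both calls, as did PC-3 array 2 or 3 for the first and 22Rv1 array 2 or 3 for the second. NR1D2 passed in no hypoxia comparison (0 of 6, limma).

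NR1D1, REV-ERB alpha, was above background on 3 of 36 arrays. In 22Rv1 with vorinostat it read 5.07, 5.69 and 5.11 in hypoxia, with 1 array above background, against 4.57, 4.65 and 4.76 in normoxia, with none. The difference was 0.63 in the fit, and with 1 array above background no fold is given. The difference was called, but the filter favoured it, so its test supports nothing. The call was also lost without hypoxic array 2 or normoxic array 1 or 2. All 3 arrays above background carried vorinostat and none was DU 145, which is what let NR1D1 into the test. Its fitted differences in drug effect, -0.54 for DU 145 minus PC-3 and -0.49 for DU 145 minus 22Rv1, are therefore given as values only, and 6 and 7 of the 8 groups had no array above background.

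DBP, a PAR-type basic leucine zipper factor of clock output, rose with vorinostat in 22Rv1. In normoxia it read 8.09, 7.95 and 8.00 with vorinostat, against 6.18, 6.61 and 6.53 with solvent. In hypoxia it read 8.33, 8.44 and 8.27 with vorinostat, against 6.77, 6.23 and 6.20 with solvent. All 6 drug arrays lie above all 6 solvent arrays, with rises of 1.58 ± 0.17 in normoxia (log2, SE, 2.98-fold, adjusted p = 1.1e-08) and 1.95 ± 0.17 in hypoxia (3.87-fold, adjusted p = 1.2e-10).

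Among the genes measured in both groups the DBP rise ranked 76 of 10044 in normoxia and 35 of 10031 in hypoxia. Without background correction the rises were 0.99 and 1.26. In PC-3, where 5 of 12 arrays were above background, the drug differences were -0.22 and -0.08 and did not pass, and in DU 145 no array was above background. The drug effect in PC-3 minus that in 22Rv1 was -1.92 ± 0.17 (log2, SE, adjusted p = 3.0e-10). DU 145 minus 22Rv1 was -1.64 in the fit, given as a value only, since every DU 145 group was at background. As a description, DBP in DU 145 with solvent in normoxia was at least 1.98-fold lower than in 22Rv1 and at least 1.01-fold lower than in PC-3. PC-3 lay below 22Rv1 by -0.97 ± 0.17 (adjusted p = 7.1e-06). Hypoxia changed DBP in none of the 4 comparisons with a group above background (-0.27 to 0.34).

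Between lines, the drug effect averaged over oxygen states differed for 5 of 9 members in DU 145 minus PC-3 (31% of all genes), 5 of 9 in DU 145 minus 22Rv1 (39.5%) and 3 of 9 in PC-3 minus 22Rv1 (28.2%). The first 2 counts include NR1D1, the first also PER2 and the second also DBP. All of these were at background in DU 145, so nothing is read from the first 2 counts. In normoxia with solvent the level differed for 8 of 9 members in DU 145 minus PC-3, all lower in DU 145 (62.3% of all genes in either direction, 31% lower). BHLHE41, PER2, PER3 and DBP were above background on no DU 145 array and entered through other lines, so nothing is read from this count. The level differed for 6 of 9 in DU 145 minus 22Rv1 (64.8%), of which BHLHE40 alone was higher in DU 145 (30.4% of all genes were higher), and for 4 of 9 in PC-3 minus 22Rv1 (68.4%). The same limit holds for PER2 and DBP in the first of these counts. It holds for BHLHE41 and PER3, at background in normoxic 22Rv1, in the second. Arrays measure RNA pooled from a culture, so a lower level in every cell and fewer expressing cells cannot be told apart.

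The other genes of the clock pathway were taken from a list of 22, of which 19 had a probe and 18 were tested. Vorinostat in DU 145 raised 4 and lowered 5 of them in normoxia (40.8% of all genes were called) and raised 3 and lowered 3 in hypoxia (41.3%). In PC-3 it raised 4 and lowered 2 in normoxia (25.8%) and raised 5 and lowered 4 in hypoxia (28.4%). In 22Rv1 it raised 3 and lowered 3 in normoxia (31.4%) and raised 4 and lowered 4 in hypoxia (33.4%). The medians of the list lay between -0.10 and 0.04 on the log2 scale, against -0.01 to 0.01 for all genes.

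Of this list, TIMELESS, a replication fork protection factor in mammals, fell with vorinostat in all 6 comparisons, from -0.79 in hypoxic DU 145 to -1.85 in hypoxic 22Rv1. RORB, an activating receptor of the ROR family, was above background only on the 12 22Rv1 arrays and rose there by 1.34 in normoxia and 2.03 in hypoxia. CIART, a clock repressor, fell in both oxygen states of PC-3 (-0.42 and -0.91) and in hypoxic 22Rv1 (-0.62) and was above background on no DU 145 array. BMAL1 and CLOCK, the activators of the loop, are named after their values were seen: BMAL1 rose in 5 of 6 vorinostat comparisons (0.46 to 0.86) and CLOCK fell in 3 of 6 (-0.83 to -0.47).

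Hypoxia with solvent raised 1 and lowered 2 of the 18 listed genes in DU 145 (14.8% of all genes were called), raised 4 and lowered 1 in PC-3 (16.9%), and raised 3 and lowered 2 in 22Rv1 (20.2%). With vorinostat, hypoxia raised 1 and lowered 0 in DU 145 (9%), raised 4 and lowered 2 in PC-3 (13.9%), and raised 7 and lowered 2 in 22Rv1 (21.8%). CIART rose by 2.57 ± 0.12 in 22Rv1 with solvent (log2, SE, adjusted p = 9.0e-17), by 1.89 with vorinostat, and by 0.53 in PC-3 with solvent. NFIL3, a repressor that binds the same D-box sites as DBP, rose in 5 of 6 hypoxia comparisons (0.50 to 1.04), and TIPIN, the partner of TIMELESS, fell in 4 of 6 (-1.20 to -0.61). The same contrast of the vorinostat effect under the 2 oxygen states was called in 22Rv1 for RORB (0.69, adjusted p = 0.0028) and CIART (-0.68, adjusted p = 0.041).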

How the data were processed

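RNA of 36 samples was hybridised to single-colour Illumina bead arrays. Per the file headers, the deposited table holds for each array a bead signal intensity that was not normalised and a detection p-value, and the submitters' processing notes name BeadStudio 3.1.3.0. The deposited processed values, on a linear intensity scale with column medians between 110.8 and 110.9, were used after log2 as an alternative. Groups came from the sample labels. Signals were background-corrected with normexp from the detection p-values, offset by 16, quantile normalised and put on the log2 scale (neqc, limma 3.58.1, R 4.3.3). Probes with a detection p below 0.01 on at least 3 arrays were kept, each gene was represented by its brightest probe on average, and limma fitted 12 group means with Benjamini-Hochberg adjustment over 12360 genes in each of 24 contrasts. Where no array of a group was above background, any fold given is a bound against the lowest signal above background (5.14 to 5.57 on the log2 scale). The model was tested on simulated data with independent noise for each array, which cannot show how it handles spread shared by same-numbered arrays. The alternatives were another scaling, offset, background correction, filter, probe rule, array weights, arrays of a line alone, a replicate block and each array left out. All members are named, with the 5 genes most like BHLHE40 and up to 3 listed clock genes a contrast family, and BMAL1 and CLOCK outside this rule. Members and lists were chosen with earlier results of these data known. Of 47323 probes, 30113 had 1 symbol, 8 several and 17202 none, and the last 2 kinds were left out.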

Additional observations from a re-analysis of the deposited data

Results flagged for a closer look

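The responses below were called in a test of the difference between lines itself (limma, adjusted p under 0.05), on the log2 scale, with limits given at the end. For the hypoxia response of BHLHE40 with solvent, 22Rv1 minus DU 145 was 2.69 and PC-3 minus 22Rv1 was -2.92. The vorinostat responses here are averaged over both oxygen states. For that of BHLHE40, DU 145 minus PC-3 was -0.34 (not called with median scaling or array weights), DU 145 minus 22Rv1 was 0.35 and PC-3 minus 22Rv1 was 0.69. The average for DU 145 joins opposite signs, -0.21 in normoxia (not called) and 0.30 in hypoxia (called). The vorinostat response of PER2 differed by 1.34 for DU 145 minus PC-3 and by -1.24 for PC-3 minus 22Rv1. That of CRY1 differed by 1.06 for DU 145 minus PC-3 and by 1.02 for DU 145 minus 22Rv1. That of DBP differed by -1.64 for DU 145 minus 22Rv1 and by -1.92 for PC-3 minus 22Rv1. NR1D2 gave -0.73 for DU 145 minus PC-3 and -0.52 for DU 145 minus 22Rv1, the second not called with median scaling. With vorinostat in DU 145, NR1D2 was above background on 1 of 3 normoxic arrays and on no hypoxic array, so the size of these differences is uncertain. NR1D1 gave -0.54 for DU 145 minus PC-3 and -0.49 for DU 145 minus 22Rv1. PER2 and DBP were at background on every DU 145 array, so their differences involving DU 145 are values only and those tests support nothing. NR1D1 was above background on 3 of 36 arrays, all with vorinostat and none DU 145, so its tests support nothing either. The values of each line stand with the genes above.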

How the results depend on the processing

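The rise of BHLHE40 in all 6 hypoxia comparisons, the fall of PER2 in PC-3, the rise of CRY1 in DU 145 and that of DBP in 22Rv1 with vorinostat kept direction and call in every alternative run. Fewer members were called under median scaling (1 in normoxia in each of the 3 lines and 1 in hypoxic PC-3, vorinostat). Vorinostat in normoxic DU 145 also gave 1 with cyclic loess, offset 50, no background correction, the authors' processed values, no filter or the line alone. Vorinostat in normoxic 22Rv1 gave 1 with no filter or all probes, and in hypoxic 22Rv1 it gave 5 with array weights or the line alone. Hypoxia in PC-3 gave 1 with the line alone in either drug state. In 22Rv1 with solvent it gave 2 without background correction, with the authors' values, array weights or the replicate block, and 3 with the line alone. The hypoxia difference PC-3 minus 22Rv1 gave 2 without background correction or with the authors' values. Leaving out an array gave 1 to 3 members for vorinostat in normoxic DU 145, normoxic PC-3 and hypoxic 22Rv1, 1 to 2 in normoxic 22Rv1, and 1 to 3 for hypoxia in PC-3 in either drug state.

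For the vorinostat effect on BHLHE40, median scaling gave 0.38 in hypoxic DU 145, 0.46 in normoxic PC-3, 0.27 in hypoxic PC-3 and -0.27 for DU 145 minus PC-3, none called. The line alone gave 0.30 in hypoxic DU 145 and array weights gave -0.31 for DU 145 minus PC-3, both uncalled. In normoxic 22Rv1 it was called at -0.28 with the 12-array filter, array weights or averaged probes. With an array left out it ran from 0.19 to 0.37 in hypoxic DU 145, 0.30 to 0.45 in normoxic PC-3, -0.36 to -0.20 in normoxic 22Rv1 and -0.39 to -0.22 in hypoxic 22Rv1. Its interaction in PC-3 turned to -0.19 with median scaling and -0.015 with cyclic loess (-0.054 to 0.096 with an array left out). In 22Rv1 it turned to 0.0067 with array weights (-0.12 to 0.060). Among uncalled values, PER2 in hypoxia in 22Rv1 with vorinostat turned to -0.0078 with median scaling, and DBP with vorinostat in hypoxic PC-3 to 0.0028 with cyclic loess (-0.24 to 0.075 with an array left out). With an array left out, NR1D2 with vorinostat ran from -0.20 to 0.069 in hypoxic PC-3 and -0.020 to 0.18 in hypoxic 22Rv1, and DBP in hypoxia in 22Rv1 with solvent from -0.22 to 0.060. The causes were not tested.

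After subtracting group means, same-numbered arrays correlated at 0.16 on average in DU 145, 0.26 in PC-3 and 0.05 in 22Rv1. The lowest values were -0.03, 0.02 and -0.01. Arrays of different numbers averaged -0.08, -0.13 and -0.03, and 11, 12 and 11 of 12 arrays correlated best with their own number. The numbers thus carry a shared part of the spread. The main fit did not use it, and the replicate block was run as an alternative. With the replicate block, vorinostat in normoxic PC-3 gave 4 members called, hypoxia in PC-3 minus DU 145 gave 1, and BHLHE40 with vorinostat in normoxic 22Rv1 was called at -0.28 (adjusted p = 0.022). Median scaling moved the median of all genes to -0.18 for hypoxia in 22Rv1 with vorinostat and -0.12 for PC-3 with vorinostat, and the share of calls that were higher to 15.1% and 19.3%, against 44.2% and 49.1%. A slide block was not run, since no slide was taken from the files. Signals near background limit BHLHE41, PER3, NR1D1, NR1D2 in DU 145, and DBP outside 22Rv1.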
